A study of Homo sapiens with 6 samples.

Results

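Complement is a cascade of plasma proteins that tags cells and microbes for removal. In the classical pathway the proteases C1R and C1S act inside the C1 complex and cleave C4 and C2. In the alternative pathway factor B (CFB) binds cleaved C3 and becomes a protease that cleaves more C3. Host cells are protected by soluble inhibitors and by proteins on their own surface. The liver makes most plasma complement, and airway epithelial cells also make components of it.

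The 9 genes described here were chosen by symbol, as components and regulators of complement, with earlier results of these data known. They are 6 genes of fluid-phase proteins (C1R, C1S, C3, CFB, CFI and SERPING1) and 3 genes of membrane regulators (CD46, CD55 and CD59). Each symbol matched a single row among the 29889 genes with counts, and all 9 passed the filter on low counts. The cells were A549, a line derived from a human lung adenocarcinoma. They were transfected with Lipofectamine 2000 and either a pIRES-hrGFP-1a plasmid that carries CELF6, an RNA-binding protein (CELF6-OE), or the empty plasmid (Control), and they were collected after 48 h. Each group had 3 libraries, which the methods call biological replicates, and all 6 come from the same line and were transfected with a plasmid. Transfection was transient, and the values are means over all cells of a culture, with or without plasmid.

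The libraries held 33748328 to 37920700 counts on genes. CELF6 had 18646, 20789 and 11571 counts in CELF6-OE replicates 1 to 3 and 0 counts in each Control library, where a count of 0 allows up to 3 counts. Replicate 3 was thus the CELF6-OE library with the least CELF6. The keratins KRT8 and KRT18, markers of simple epithelium, had FPKM (fragments scaled to transcript length and to sequencing depth) of 1643 or more in every library. Of the alveolar markers, NKX2-1, SFTPB and SFTPC were at 6 counts or fewer in every library, and NAPSA had 33, 37 and 54 counts in Control and 17, 23 and 25 in CELF6-OE (log2 fold change -0.86, adjusted p = 0.0536). Of 10 leukocyte markers only CD14 reached 10 counts in every library, and PTPRC, which defines leukocytes, had 2 counts in 1 Control library and 0 in the others. The hepatocyte markers ALB, APOA1, TTR and CYP3A4 had 7 counts or fewer in each library. The summed FPKM of the 9 epithelial markers lay at 3340 to 4080 in the CELF6-OE libraries and at 4650 to 5080 in those of Control, and that of the leukocyte markers at 3.36 to 4.7 and 3.08 to 3.8. KRT8 and KRT18 made up nearly all of the epithelial sum. Of the 9 epithelial markers 6 were tested, all 6 had log2 fold changes below 0, and 1 was called. This was CDH1 (E-cadherin), with 10.6, 11.2 and 10.5 FPKM in Control and 2.98, 2.8 and 4.95 FPKM in CELF6-OE, which fell by 1.62 on the log2 scale (adjusted p = 0.000105). The part of the epithelial markers in the results was not tested. In bulk RNA, fewer cells that express a gene and less RNA of it per cell cannot be told apart.

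All 6 fluid-phase genes were lower in CELF6-OE, and none of the 3 membrane regulators reached the same threshold. A gene was called when its adjusted p was under 0.05 and its fold change at least 1.5. Throughout, p is from the quasi-likelihood test of edgeR, adjusted by the Benjamini-Hochberg method over all genes tested. Over the 15847 genes tested, 5.82% were called lower and 1.35% higher. The median log2 fold change was -1.49 for the 6 fluid-phase genes, -0.34 for the 3 membrane regulators and 0.011 for all genes tested. The count of 6 and the median of -1.49 include the CFB row. That row held few of the reads at its locus, so the level of CFB itself cannot be read from it. CFB passed the filter on low counts through its Control libraries, so that its passing favoured a lower call. No test was run between the lists, and the values of each gene follow.

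**Figure D1:**
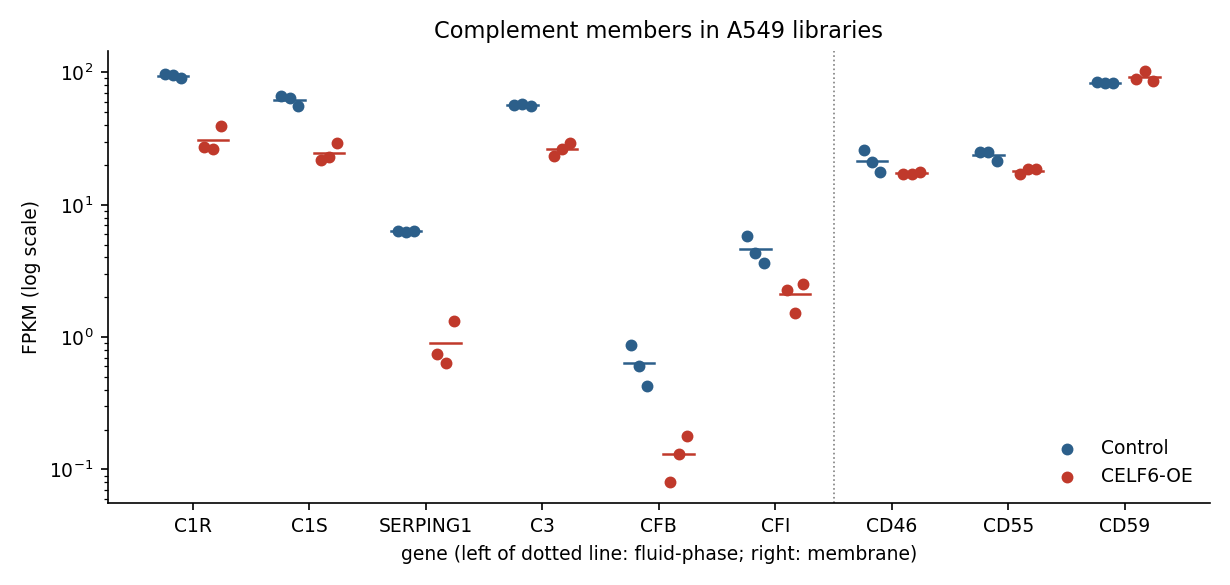
FPKM of the 9 complement genes on a log axis, with 1 point per library and a bar at the mean of 3 libraries. The CELF6-OE points lie below all Control points for the 6 fluid-phase genes on the left and for CD55, overlap with Control for CD46, and lie above Control for CD59.

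C1R and C1S, the paired serine proteases of the C1 complex, were among the most abundant complement transcripts of the Control cells. C1R had 97, 96.1 and 90.5 FPKM in Control replicates 1 to 3 and 27.1, 26.6 and 39.6 FPKM in CELF6-OE replicates 1 to 3. The means were 94.5 ± 3.52 and 31.1 ± 7.38 FPKM (SD, n = 3 each). Even the highest CELF6-OE value was below the lowest Control value, and C1R fell by 1.63 on the log2 scale (standard error 0.13), with an adjusted p of 2.01e-05.

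C1S had 66, 63.6 and 56.1 FPKM in Control and 21.8, 22.9 and 29.4 FPKM in CELF6-OE. The groups did not overlap, and C1S fell by 1.35 on the log2 scale (standard error 0.10), with an adjusted p of 1.74e-05. The FPKM ratio of C1R to C1S was 1.47, 1.51 and 1.61 in Control and 1.25, 1.16 and 1.35 in CELF6-OE. The ratio was lower in every CELF6-OE library than in every Control library (p = 0.1, exact permutation test, two-sided, which is as low as p can go with 3 libraries in each group). C1R and C1S lie on opposite strands of the same stretch of chromosome 12. In GENCODE v44, on the GRCh38 build to which the authors aligned, C1R spans chr12:7080214-7092540 on the minus strand and C1S chr12:6988259-7071032 on the plus strand. Of the bases of the canonical C1R transcript, 25.2% are shared with C1RL on the same strand, so reads there could be divided between both genes. C1RL, a C1R-like protease, had 1242, 1279 and 1232 counts in Control and 650, 723 and 728 counts in CELF6-OE, and it fell by 0.76 on the log2 scale (adjusted p = 6.77e-05). C1S overlaps LPCAT3 on the opposite strand with no exon base in common, and LPCAT3 had 2132, 2190 and 2107 counts in Control and 1418, 1504 and 1546 in CELF6-OE. ENSG00000290146 overlaps C1S on the same strand. It shares no base of the canonical C1S transcript and has no row among the counts.

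SERPING1 encodes C1 inhibitor, the serpin that inactivates C1R and C1S, and it had the largest decrease of the 9 genes. It had 6.34, 6.26 and 6.38 FPKM in Control and 0.75, 0.64 and 1.33 FPKM in CELF6-OE, or 598, 614 and 627 counts against 68, 59 and 117. The Control libraries were close together (coefficient of variation 0.966%). SERPING1 fell by 2.83 on the log2 scale (standard error 0.20, adjusted p = 1.22e-05), which is a 7.13-fold decrease. It lies at chr11:57597387-57619171 on the plus strand, and no other annotated gene overlaps it.

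Because both proteases fell by less than their inhibitor, the ratio of their transcripts to that of SERPING1 was higher in CELF6-OE. These ratios were computed after the single values had been seen. The FPKM ratio of C1R to SERPING1 was 15.3, 15.4 and 14.2 in Control and 36.2, 41.6 and 29.8 in CELF6-OE, a mean 2.4 times as high. The ratio of C1S to SERPING1 was 10.4, 10.2 and 8.79 in Control and 29, 35.8 and 22.1 in CELF6-OE, a mean 2.96 times as high. Neither ratio overlapped between the groups (p = 0.1 for each, exact permutation test, two-sided, again the lower limit).

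C3, the central component on which all pathways converge, had 56.8, 57.6 and 56 FPKM in Control and 23.5, 26.4 and 29.1 FPKM in CELF6-OE. The groups were far apart relative to their spread, with means of 56.8 ± 0.805 and 26.3 ± 2.82 FPKM (SD, n = 3 each). C3 fell by 1.14 on the log2 scale (standard error 0.077, adjusted p = 1.08e-05). It spans chr19:6677704-6730562 on the minus strand. There it overlaps GPR108, with no exon base in common, and the lncRNA CTD-3128G10.7, which shares no base of the canonical C3 transcript and had 27 to 75 counts per library. GPR108 had 1266 to 1319 counts in CELF6-OE and 1581 to 1927 in Control.

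CFI encodes factor I, the soluble protease that cleaves C3b and C4b when a cofactor such as CD46 is present. CFI had 5.85, 4.33 and 3.61 FPKM in Control and 2.26, 1.52 and 2.54 FPKM in CELF6-OE. The groups did not overlap, but the Control libraries were more scattered than for the components above (coefficient of variation 24.9%). CFI fell by 1.15 on the log2 scale (standard error 0.20), with an adjusted p of 0.00243. It lies at chr4:109731008-109802150 on the minus strand, where GENCODE v44 also annotates ENSG00000285330, which covers 79% of the bases of the canonical CFI transcript and has no row among the counts.

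CFB, the protease of the alternative pathway, was the least abundant of the 9 rows, with 0.87, 0.6 and 0.43 FPKM in Control and 0.08, 0.13 and 0.18 FPKM in CELF6-OE. These values rest on 94, 68 and 48 counts in Control and 8, 14 and 18 counts in CELF6-OE. CFB fell by 2.31 on the log2 scale (standard error 0.33, adjusted p = 0.000806), and the groups did not overlap. It was the only one of the 9 genes that reached the filter's minimum, a level of 10 counts scaled to depth, in every Control library but not in every CELF6-OE library. Its passing thus favoured a lower call.

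The CFB row did not hold most reads of its locus. GENCODE v44 places CFB at chr6:31945650-31952086 on the plus strand, next to C2 at chr6:31897785-31945673, and both are overlapped by ENSG00000244255 (XXbac-BPG116M5.17 in the deposited table), a read-through gene at chr6:31927698-31952048. Its exons cover 90.8% of the bases of the canonical CFB transcript. The read-through row had 6139, 5871 and 5053 counts in Control and 782, 827 and 1320 counts in CELF6-OE, so it held far more reads than CFB in every library. Of the counts on both rows together, CFB took 0.941% (Wilson 95% confidence interval 0.711% to 1.25%) in the library with the lowest share, Control replicate 3, and 1.66% (0.994% to 2.77%) in that with the highest, CELF6-OE replicate 2. These intervals cover counting error only. XXbac-BPG116M5.17 fell by 2.46 on the log2 scale (standard error 0.18, adjusted p = 1.22e-05), from 36 ± 4.21 to 6.65 ± 2.2 FPKM (SD, n = 3 each). How the counting divided reads among these rows is not given in the sources used here, so the level of CFB itself cannot be read from its row. Both rows had lower values in every CELF6-OE library than in every Control library. C2, which pairs with C4 in the classical pathway, had 68, 50 and 54 counts in Control and 10, 2 and 10 counts in CELF6-OE and fell by 2.87 on the log2 scale (adjusted p = 0.000396). The span of the read-through gene overlaps that of C2 too.

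**Figure D2:**
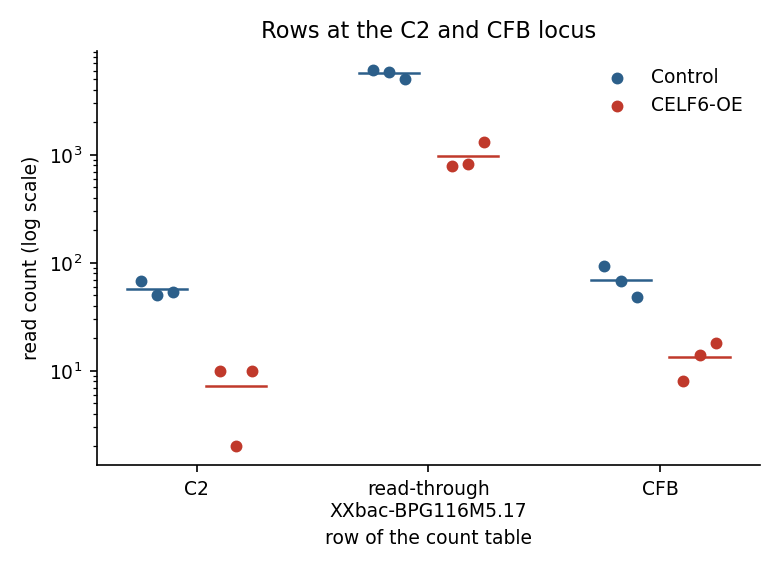
Read counts, on a log axis, of the 3 rows at the C2 and CFB locus, with 1 point per library and a bar at the mean of 3 libraries. The read-through row lies at 5053 to 6139 counts in Control, against 48 to 94 counts for CFB, and all 3 rows are lower in CELF6-OE.

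The promoter windows of RefSeq (GRCh38.p14) hold 6 of the 9 genes, and C1S, C3 and SERPING1 were not among them. Each window runs from 250 bases before a transcription start site to 50 bases after it. They were searched on both strands for the core of the interferon-stimulated response element (ISRE, GAAA and GAAA with any 2 bases between them), the core of the gamma-interferon activation site (GAS, TTCNNNGAA) and the kappaB consensus, which were chosen with the changes of these genes known. Matches are shown because CFB, with a single window, held all 3 motifs. Of all 35116 windows, 3.57% hold the ISRE core, 7.66% the GAS core and 11.27% the kappaB consensus. The capitals mark the match, and each sequence is written 5′ to 3′ on the strand of the gene.
CFB, ISRE core read on the opposite strand, chr6:31945945-31945974 (+), first base of the match at position -140 from the start site: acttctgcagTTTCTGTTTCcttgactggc
CFB, kappaB consensus, chr6:31945973-31946002 (+), first base at position -112: gcagctcagcGGGGCCCTCCcgcttggatg
CFB, GAS core, chr6:31945993-31946022 (+), first base at position -92: cgcttggatgTTCCGGGAAagtgatgtggg
C1R, GAS core, chr12:7091960-7091989 (-), first base at position -86 in 1 of its 2 windows: gccagtcctaTTCCTGGAAggggaggggag
CD59, GAS core, chr11:33736588-33736617 (-), first base at positions -128 and -184 from 2 of its 4 start sites: ccacccggccTTCTCAGAAcctgggccagg
The 3 matches in the CFB window do not overlap each other. The windows of CFI, CD46 and CD55 held none of these letters. A match is a description of the sequence and not a site of binding, and the CD59 match stands beside a gene that was not called.

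The 3 membrane regulators act on the cell that carries them. CD46 (membrane cofactor protein) is the cofactor of factor I, CD55 (decay-accelerating factor) takes apart C3 convertases, and CD59 (protectin) blocks the membrane attack complex. CD55 had 25.2, 25.1 and 21.5 FPKM in Control and 17, 18.8 and 18.6 FPKM in CELF6-OE. The groups did not overlap, and CD55 fell by 0.43 on the log2 scale (standard error 0.071, adjusted p = 0.00196), a 1.35-fold decrease that lies under the fold threshold.

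CD46 had 25.9, 21.2 and 17.6 FPKM in Control and 17.1, 17.2 and 17.7 FPKM in CELF6-OE. Control replicate 3 lay within the range of the CELF6-OE libraries, so the groups overlapped (two-sided exact permutation test, p = 0.2). The log2 fold change of CD46 was -0.34 (standard error 0.10), with an adjusted p of 0.0386, but over 18 alternative fits the adjusted p lay under 0.05 in 11 and reached 0.134. It was 0.0977 with library size as the only scaling, 0.134 and 0.129 with limma-trend on log2(FPKM + 1) and log2(FPKM + 0.1), and 0.12, 0.126, 0.066 and 0.117 without CELF6-OE replicates 1, 2 and 3 and Control replicate 2. The log2 fold change of CD46 was -0.22 without Control replicate 1 and -0.45 without Control replicate 3. The lncRNA gene MIR29B2CHG (C1orf132 in the deposited table) overlaps CD46 on the opposite strand, with 16 to 32 counts per library.

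CD59 had 84.4, 83.2 and 82.6 FPKM in Control and 88.5, 102 and 85.6 FPKM in CELF6-OE. Although every CELF6-OE value lay above every Control value, the log2 fold change was 0.11 (standard error 0.070), the adjusted p was 0.295, and CELF6-OE replicate 2 alone reached 102 FPKM. Over the 18 alternative fits the log2 fold change of CD59 lay between 0.04 and 0.16, and its adjusted p was never under 0.05. At an adjusted p under 0.05 with no fold threshold, CD55 and CD46 joined the 6 fluid-phase genes as lower, 8 of 9 in all, against 11.5% of all genes tested.

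**Figure D3:**
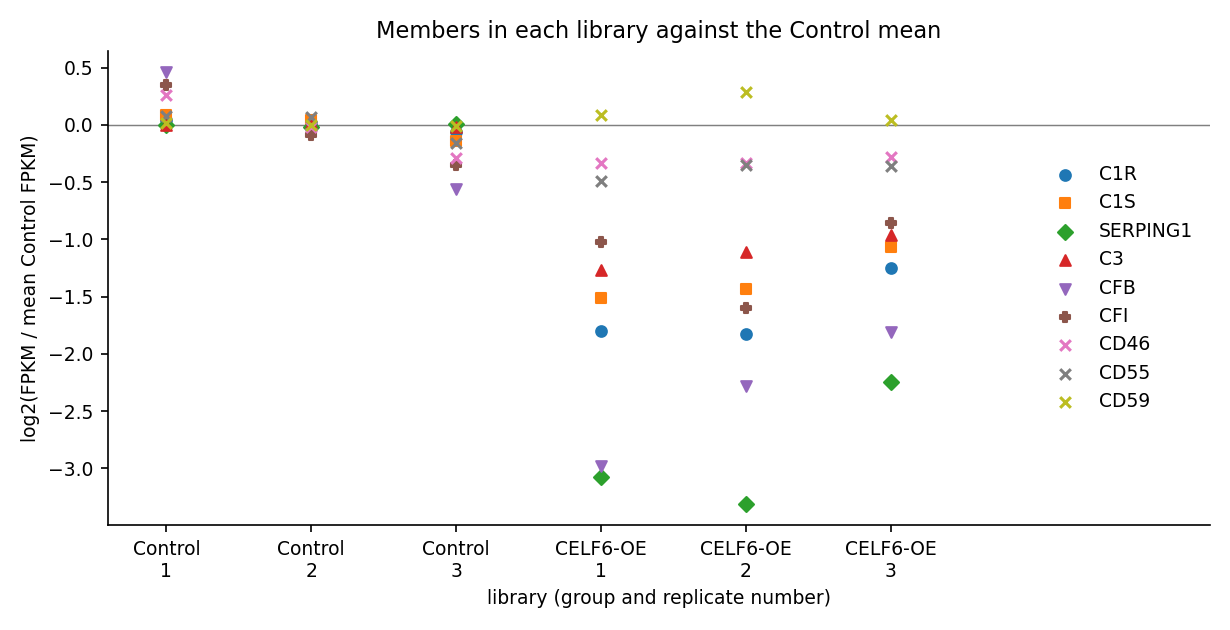
The log2 ratio of each gene's FPKM in each library to its mean Control FPKM, with filled symbols for fluid-phase genes and crosses for membrane regulators. In CELF6-OE the fluid-phase genes lie between -3.31 and -0.86 and the membrane regulators between -0.49 and 0.29, and the fluid-phase genes lie highest in CELF6-OE replicate 3.

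The summed FPKM of the 6 fluid-phase genes was 233, 229 and 213 in Control and 75.5, 78.2 and 102 in CELF6-OE. That of the 3 membrane regulators was 136, 129 and 122 in Control and 123, 138 and 122 in CELF6-OE. The membrane sum overlapped between the groups, and CD59 made up most of it. The quotient of the fluid-phase sum and the membrane sum was 1.72, 1.77 and 1.75 in Control and 0.615, 0.567 and 0.838 in CELF6-OE. For single pairs of genes, the FPKM ratio of C3 to CD59 was 0.681 ± 0.0101 in Control and 0.288 ± 0.0451 in CELF6-OE (SD, n = 3 each). That of C3 to CD46 was 2.69 ± 0.49 and 1.52 ± 0.136, and that of C3 to CD55 2.38 ± 0.193 and 1.45 ± 0.0988. The Control mean was 2.37 times the CELF6-OE mean for CD59, 1.78 times for CD46 and 1.64 times for CD55. None of the 3 ratios of C3 overlapped between the groups (p = 0.1 for each, exact permutation test, two-sided, the lower limit). They were formed with earlier results of these data known. C3 alone did not overlap between the groups and the membrane regulators changed less, so these ratios are no separate evidence.

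The order of the levels differed between the groups. In Control, C1R (94.5 FPKM) stood first, followed by CD59 (83.4), C1S (61.9), C3 (56.8), CD55 (23.9), CD46 (21.6), SERPING1 (6.33) and CFI (4.6). CFB was left out of the order, since its row (0.633 FPKM) held few of the reads at its locus and the read-through row stood at 36 FPKM. C1S and C3 overlapped between libraries, as did CD55 and CD46. In CELF6-OE, CD59 (92 FPKM) stood first and C1R (31.1) second, with C3 (26.3) and C1S (24.7) after it, and C1R, C3 and C1S overlapped between libraries. CD55 (18.1) and CD46 (17.3) also overlapped, and CFI (2.11) stood above SERPING1 (0.907) in every pair of CELF6-OE libraries.

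The libraries of a group were not alike. Each of the 6 fluid-phase genes had its highest CELF6-OE value in replicate 3, the library with the least CELF6. The same was true of 68.1% of the 922 genes called lower in all, so this was common among such genes. Without CELF6-OE replicate 3 the log2 fold change of SERPING1 was -3.22, that of CFB -2.61, that of C1R -1.85, that of C1S -1.50, that of CFI -1.31 and that of C3 -1.22, and all 6 were still called. In Control, 7 of the 9 genes were highest in replicate 1 and lowest in replicate 3, as were 37.9% of all genes tested. This spread was widest for CFB (coefficient of variation 35%), CFI (24.9%) and CD46 (19.2%) and smallest for SERPING1 (0.966%), CD59 (1.12%) and C3 (1.42%). Of the 9 genes, 7 were lower in every CELF6-OE library than in every Control library, against 17.9% of all genes tested.

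The rest of the complement system was read from a list of 53 other genes. Of these, 46 had a row among the counts, 23 passed the filter, and 17 of the 23 were called lower and none higher, beside 5.82% and 1.35% of all genes tested. The filter kept genes with enough reads in either group, so those that passed are not the whole pathway. C2, C4A, C4B, C8G and CR1L reached its minimum in every Control library but not in every CELF6-OE library, so that their passing favoured a lower call. Of the 17 genes that reached the minimum in every CELF6-OE library, 12 were called lower and none higher. The 23 genes with a row that did not pass had at most 20 counts in any library. Without the filter 18 genes of the list were called lower and 1 higher, with MASP1 (4, 6 and 2 counts in Control and 0 in each CELF6-OE library) added as lower and CSMD3 (5, 5 and 5 counts against 7, 20 and 13) as higher, in a fit where the spread of single genes does not enter p. The count also depended on single libraries. It was 9 of 24 without CELF6-OE replicate 2 and 10 of 24 without Control replicate 2, all lower, and 12 of 25 without CELF6-OE replicate 1, of which 11 were lower and 1 higher.

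In the classical and lectin pathway 4 of 6 genes tested were called, namely C1RL, C2, C4A and C4B. Of these, C2, C4A and C4B passed the filter through their Control libraries, which favoured a lower call. C4A and C4B are near-identical copies between which reads can be divided, with 30, 18 and 22 counts of C4A in Control and 1, 10 and 9 in CELF6-OE. The collectins COLEC11 and COLEC12 were not called, with log2 fold changes of -0.62 and -0.23. Of the alternative pathway, CFD, the protease that activates factor B, had 27.1, 25.8 and 27.2 FPKM in Control and 17.9, 14.6 and 18.1 FPKM in CELF6-OE and fell by 0.69 on the log2 scale (adjusted p = 0.000555). Of the terminal pathway, C8G fell by 1.09 (adjusted p = 0.0337) and C5, from which the membrane attack complex starts, by 0.64 (adjusted p = 0.0432) on the log2 scale. C8G, too, passed the filter through its Control libraries. The C5 values overlapped, at 4.24, 3 and 2.22 FPKM in Control and 2.22, 1.64 and 2.31 FPKM in CELF6-OE.

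Among soluble regulators 5 of 7 genes tested were called. VTN (vitronectin), which binds the terminal complex, had 19.5, 19.1 and 18 FPKM in Control and 6.19, 5.2 and 7.66 FPKM in CELF6-OE and fell by 1.60 (adjusted p = 1.5e-05). C4BPA and C4BPB, the chains of the C4b-binding protein, were called lower with log2 fold changes of -0.88 (adjusted p = 0.0199) and -1.10 (adjusted p = 0.00892). CLU (clusterin), another inhibitor of the terminal complex and the most abundant soluble regulator here, was not called (log2 fold change -0.02, standard error 0.067, adjusted p = 0.844), with 133 ± 5.6 FPKM in Control and 134 ± 3.62 FPKM in CELF6-OE (SD, n = 3 each).

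Among receptors 4 of 6 genes tested were called, all at low levels. C5AR1, the receptor of the anaphylatoxin C5a, had 1.18, 1.34 and 1.34 FPKM in Control and 0.56, 0.58 and 0.67 FPKM in CELF6-OE and fell by 1.12 on the log2 scale (adjusted p = 0.000907). The integrin subunits ITGAM, ITGAX and ITGB2, which form the complement receptors CR3 and CR4, fell by 0.73, 0.69 and 1.02 on the log2 scale (adjusted p = 0.0119, 0.0163 and 0.0241). They had under 0.6 FPKM in every library. C1QBP, a largely mitochondrial protein that binds C1q, was not called either (log2 fold change 0.03, standard error 0.063, adjusted p = 0.783) and lay between 499 and 541 FPKM.

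**Figure D4:**
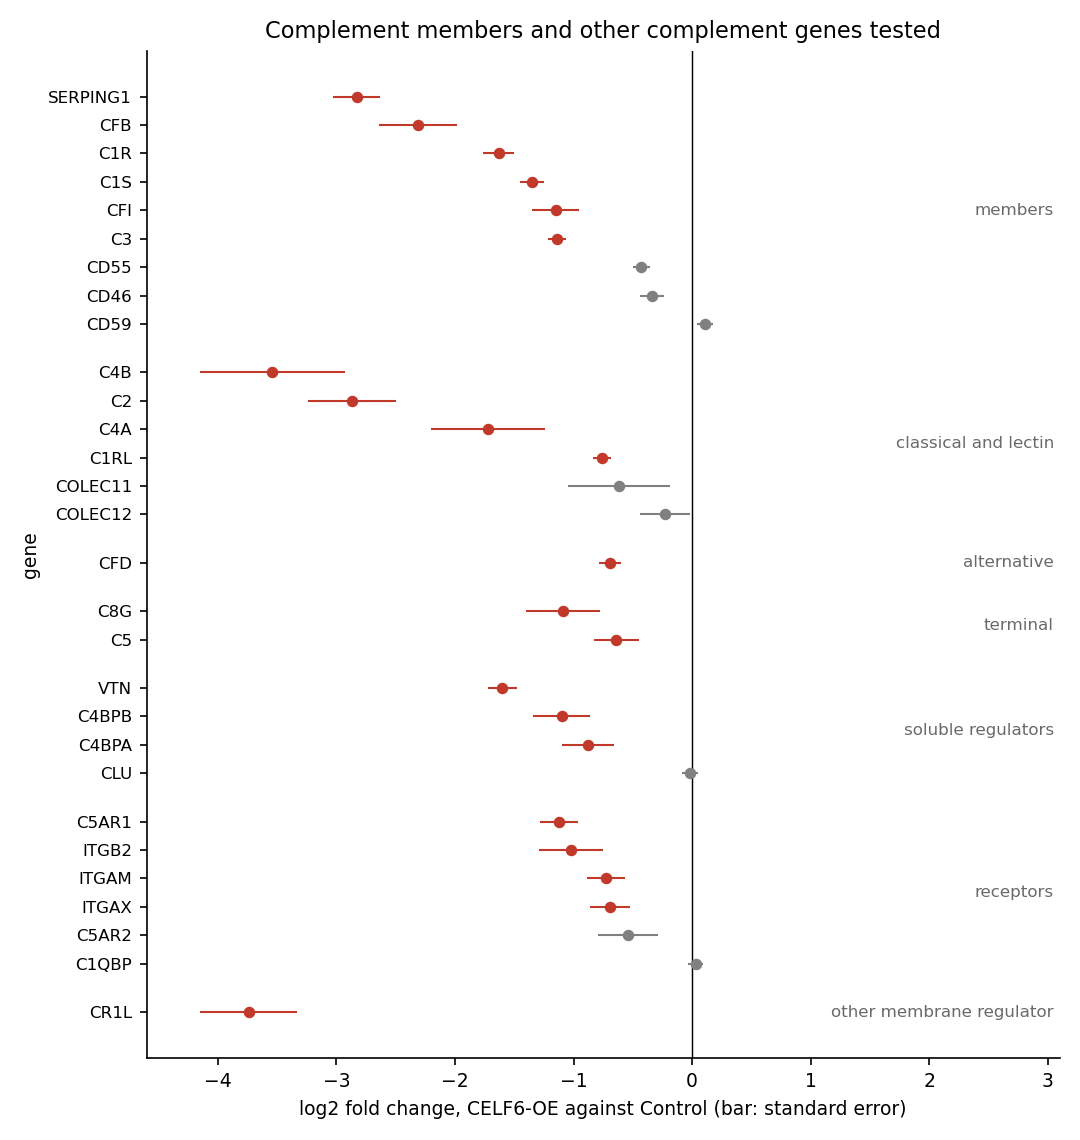
The log2 fold change of CELF6-OE against Control with its standard error for the 9 members and the other complement genes reported here, grouped by role; red points were called (adjusted p under 0.05 and at least 1.5-fold) and grey points were not. All called genes lie left of 0, and CD59, CLU and C1QBP lie near 0.

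CD46 and CD55 belong to a cluster of complement regulators on the long arm of chromosome 1. CD55 spans chr1:207321519-207386804 and CD46 chr1:207752037-207795513, both on the plus strand, with CR2, CR1 and CR1L between them. CR1L, at chr1:207645113-207738416, had 40, 55 and 64 counts in Control and 4, 1 and 6 counts in CELF6-OE and fell by 3.74 on the log2 scale (standard error 0.41, adjusted p = 0.000145). CR1L stood in the list as another membrane regulator, the only 1 of 5 such genes that was tested. Unlike the 3 membrane regulators among the members, it was called lower. It passed the filter through its Control libraries, and its difference from CD46 and CD55 was not tested. CR1 and CR2 had 1 count or fewer in every library. CD59 lies elsewhere, at chr11:33703010-33736479 on the minus strand. ENSG00000284969 overlaps CD59 on the same strand and covers 8.3% of the bases of the canonical CD59 transcript. This gene has no row among the counts.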

How the data were processed

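RNA of 3 CELF6-OE and 3 Control A549 cultures was sequenced from stranded, polyadenylated libraries. Reads were trimmed (FASTX-Toolkit) and aligned to GRCh38 (TopHat2) by the authors, and those with a unique location were counted. The deposited counts are whole numbers per gene without normalization, and the deposited FPKM values come from the same reads, rounded by the authors. The counting tool, strand setting and annotation release are not given in the sources used here.

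Counts were scaled with TMM and tested with edgeR 4.0.16 (R 4.3.3, glmQLFit and glmQLFTest) on the 15847 genes kept by filterByExpr, with Benjamini-Hochberg adjustment over all of them. Without that filter the prior degrees of freedom were infinite, so that the spread of single genes would not enter p. With it they were 7.15. Standard errors were derived from the F statistic. FPKM values served for levels, ratios and exact permutation tests. Positions are from GENCODE v44 and were found for 97.1% of gene IDs. Replicates were checked for duplicates and none was found (chi-square per degree of freedom 7.67 or more). Named were the members and genes that overlap them, with pseudogenes left out. Also named were, per role of the pathway list, the 2 lowest adjusted p and the highest FPKM, and others of the list. Some genes of the lists, although counted in them, are not reported here by name. The members and lists were chosen with earlier results of these data known. The procedure was tested on simulated counts. DESeq2 1.42.0 and limma 3.58.1 were alternatives.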

Additional observations from a re-analysis of the deposited data

How the results depend on the processing

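The count of called members was 6 under the main settings, 5 with limma-trend on log2(FPKM + 1), where the log2 fold change of CFB was -0.52 and that of SERPING1 -1.96, and 6 with any single library left out. That scale understates changes of low genes by its construction. With log2(FPKM + 1) 5 genes of the pathway list were called in place of 17, and the difference between the medians of the fluid-phase and the membrane genes was -0.91 in place of -1.15. A 2-fold threshold left 11 genes of the pathway list, and leaving out each library in turn left 9 to 17. No log2 fold change of a member changed sign in the 18 alternative fits. With the replicate number as a block, 6 members and 17 genes of the pathway list were called, as without it. Same-numbered libraries did not deviate together (r = -0.0113, -0.0212 and -0.0722). With 3 libraries in each group, these values cannot show whether the samples were handled in pairs. The cause of the dependence on single libraries was not tested. Over all genes, 922 were called lower and 214 higher, against 417 and 53 with log2(FPKM + 1), 475 and 64 at 2-fold, 1820 and 1025 with no fold threshold, and 107, 115 and 371 higher without CELF6-OE replicate 2, Control replicate 2 and Control replicate 1. Counts under 100, as for CFB, C2, C4A and CR1L, limit the precision of those fold changes.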
